A study of Mus musculus with 18 samples.

Results

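Antigen presentation on MHC class I was followed through 10 genes in expanded and control mouse skin: the heavy chains H2-K1, H2-D1, H2-T23 and H2-Q4, the light chain B2m, the peptide transporter subunits Tap1 and Tap2, the loading factor Tapbp, and the immunoproteasome subunits Psmb8 and Psmb9. They were chosen by symbol, and all 10 were found among the 32285 genes of every count matrix. The set was proposed with results of the expanded against control comparison known, so the differences of the 10 genes between arms are given below as description, with standard errors and without p-values. The study recorded single-cell RNA from the skin of mice that had all been operated on, with an incision near the tail and a tunnel made under the skin towards the neck. Expanded mice (EXP) received a hydrogel expander under the skin near the neck, which stretches the skin above it, and control mice (CTRL) received the surgery without an expander. Skin was taken on days 1, 2 and 4, and live cells were sorted. In each sequencing round the mice of an arm were pooled in 1 tube, which gave 5 control and 5 expanded libraries: 2 rounds each on days 1 and 2, and 1 round on day 4. The labels used here name no strain, genotype, sex or age.

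MHC class I molecules display short peptides from inside a cell to CD8 T cells and to natural killer cell receptors. A heavy chain folds with beta-2 microglobulin, the product of B2m, in the endoplasmic reticulum. The TAP1 and TAP2 transporter brings in peptides that the proteasome has cut, tapasin (Tapbp) holds the empty molecule to the transporter, and PSMB8 and PSMB9 replace the constitutive catalytic subunits PSMB5 and PSMB6 in the immunoproteasome. H2-K1 and H2-D1 are the classical heavy chains that present peptides to CD8 T cells, whereas H2-T23 (Qa-1) presents leader peptides to the CD94 receptors of natural killer and T cells, and H2-Q4 is a non-classical chain of the Qa region. Interferon gamma is a known inducer of the whole set through IRF1 and the coactivator NLRC5, among other factors.

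Of the genes 9 lie in the MHC on chromosome 17 (GRCm38, GENCODE annotation), and B2m lies on chromosome 2 at chr2:122147686-122153083. The order along chromosome 17 was Tapbp at chr17:33915899-33929292, H2-K1 at chr17:33996017-34000347, Psmb9 at chr17:34181987-34187764, Tap1 at chr17:34187553-34197225, Psmb8 at chr17:34197721-34201454, Tap2 at chr17:34203527-34216321, H2-D1 at chr17:35262730-35267499, H2-Q4 at chr17:35379617-35385290 and H2-T23 at chr17:36029773-36032855. Psmb9 (minus strand) and Tap1 (plus strand) start from 1 shared region. The promoters of the heavy chains, of B2m and of this shared region are printed because these genes are the ones whose levels are compared below, and because the letters differ between the heavy chains. All are RefSeq sequence of GRCm38.p6, 5′ to 3′ on the strand of the gene and, for the shared region, on the plus strand. The positions are chr17:34000348-34000547 for H2-K1 (minus), chr17:35262894-35263093 for H2-D1 (plus), chr17:35379417-35379616 for H2-Q4 (plus), chr17:36032702-36032901 for H2-T23 (minus), chr2:122147487-122147686 for B2m (plus) and chr17:34187331-34187555 for the region between Psmb9 and Tap1. Capitals mark matches to an NF-kB core, an interferon response core or an X2 box core.
H2-K1: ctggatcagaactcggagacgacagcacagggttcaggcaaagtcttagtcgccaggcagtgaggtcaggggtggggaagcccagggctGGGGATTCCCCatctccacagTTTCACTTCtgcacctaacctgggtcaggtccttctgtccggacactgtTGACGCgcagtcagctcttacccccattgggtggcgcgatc
H2-D1: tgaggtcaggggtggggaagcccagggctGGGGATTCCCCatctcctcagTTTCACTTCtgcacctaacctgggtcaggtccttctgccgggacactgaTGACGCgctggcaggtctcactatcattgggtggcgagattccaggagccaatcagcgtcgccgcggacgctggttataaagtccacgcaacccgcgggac
H2-Q4: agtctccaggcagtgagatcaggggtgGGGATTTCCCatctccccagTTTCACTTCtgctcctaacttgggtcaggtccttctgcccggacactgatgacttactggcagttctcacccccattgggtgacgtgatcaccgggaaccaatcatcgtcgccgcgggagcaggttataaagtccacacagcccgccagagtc
H2-T23: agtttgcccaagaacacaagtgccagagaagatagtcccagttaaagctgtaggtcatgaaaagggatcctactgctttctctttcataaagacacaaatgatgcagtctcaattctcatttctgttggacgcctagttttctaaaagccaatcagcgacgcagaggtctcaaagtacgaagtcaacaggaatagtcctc
B2m: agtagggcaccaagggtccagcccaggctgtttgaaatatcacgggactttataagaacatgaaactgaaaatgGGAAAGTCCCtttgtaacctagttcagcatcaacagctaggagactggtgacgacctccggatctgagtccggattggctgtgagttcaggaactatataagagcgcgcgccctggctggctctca
Tap1 and Psmb9: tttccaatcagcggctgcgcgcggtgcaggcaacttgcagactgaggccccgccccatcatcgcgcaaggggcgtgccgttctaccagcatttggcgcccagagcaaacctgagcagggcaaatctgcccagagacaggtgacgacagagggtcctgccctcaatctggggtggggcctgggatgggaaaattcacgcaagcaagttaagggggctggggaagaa

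Motifs were searched as letters on both strands in the 250 bases before each RefSeq start, for the 9 genes with an entry (Tap2 had none). The interferon response core GAANNGAAA was found in H2-K1, H2-D1 and H2-Q4, and in 7.30% of all 27025 genes with an entry. The NF-kB core (GGGA, any base, T, any 2 bases, CC) was found in those heavy chain genes and in B2m, 4 of 9, against 3.97% of all genes. In H2-K1 and H2-D1 a pair of overlapping matches to that core makes the run of 11 capitals. The X2 box core TGACGC was found in H2-K1 and H2-D1 (6.93% of all genes) and the letters CCAAT in 8 of 9 (37.5%). TTCNNNGAA, the core of a gamma-activated site, was found in Psmb8 only (8.13%). The H2-T23 window held none of the first 3 cores. These matches describe letters and no binding was measured.

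The files were UMI counts, where a UMI marks 1 captured molecule. The 10 libraries held 2468 to 9115 barcodes and 17726739 to 75470722 UMIs in genes, and any 2 libraries shared at most 0.413% of the barcodes of the smaller one. The share of barcodes over the mitochondrial limit of 10% ran from 8.60% to 24.4%, and the highest shares were those of the expanded libraries of day 2, round 2 and day 4. After removal of doublets 45473 cells formed 40 clusters, and those that passed the rules on marker lists were named. Each name below means cells like that type by their markers, and the suffix -like is left out. The 9 clusters that stayed unnamed are in no class: cluster 5 (led by Coch, 2209 cells), 13 (Fmod, 1398), 19 (Tnc, 953), 25 (Ctla4, with Foxp3 and Il2ra, 595), 33 and 34 (cell cycle genes, 285 and 236), 36 (Mcpt8, 107), 38 (Fmod, 63) and 39 (Cthrc1, 9). The 13 classes with enough cells in at least 4 libraries of each arm were compared: endothelial (led by Rbp7 and Selp), lymphatic endothelial (Ccl21a), fibroblast (clusters led by C4b, Grem1, Igfbp2 and others), macrophage or monocyte (Chil3, Cd209f, Pf4), dendritic (Lyz1), Langerhans (Ccl22, Cd207, Ccr7), T cell (Trdc, Ikzf3, Cd6), natural killer or innate lymphoid (Gzmc), pericyte or smooth muscle (Rgs5), Schwann (Cdh19), basal keratinocyte (Krt24, Ly6d), melanocyte (Dct) and dermal papilla (Slc26a7). Median UMIs per cell were higher in the expanded arm in all 13 classes, for example 5149 against 9585 in endothelial cells. Counts were summed per class and library and are given as CPM, the count scaled to a fixed total for that class and library. Mice of an arm share a tube, so standard errors measure the spread between pools.

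In control skin the genes were found in every named class, at levels that differed between classes by gene. The orders below are over the 17 named classes, and unnamed clusters are given where they stood higher or lower. The Langerhans class had the highest level of Psmb8, 602 ± 152 CPM (SD, n = 5), against 282 ± 131 in dendritic cells. It also led for Psmb9, 297 ± 89.2 CPM against 104 ± 31.8 in endothelial cells, and for Tap1, 116 ± 28.0 CPM against 71.4 ± 22.7 in suprabasal keratinocytes (n = 4). Each of these leads over the next named class was larger than the SD over libraries. Unnamed clusters lay between: for Psmb8 cluster 34 at 347 ± 97.6 CPM and cluster 25 at 341 ± 143, for Psmb9 cluster 34 at 146 ± 46.5, and for Tap1 cluster 25 at 92.6 ± 31.0 (n = 4 each), the last within the SD of the Langerhans class. That class passed all 5 Langerhans markers and also 8 of the 9 dendritic ones, so its name is uncertain, and its leading genes joined Cd207, H2-M2 and Ltc4s to Ccl22 and Ccr7, of which Ccr7 is on the dendritic marker list. Its Irf8 level was 794 ± 108 CPM in control libraries, against 53.9 ± 21.0 in dendritic cells. The lowest Psmb9 level was that of dermal papilla cells, the mesenchymal cells at the base of the hair follicle, at 4.98 ± 3.37 CPM (n = 4), below pericytes at 10.9 ± 5.69.

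Among the heavy chains and the named classes, H2-K1 was highest in natural killer or innate lymphoid cells (1553 ± 190 CPM) and in endothelial cells (1546 ± 230), which did not differ beyond their SD, and lowest in dermal papilla cells (430 ± 87.5). Over the named classes H2-D1 ran from 2985 ± 693 CPM in dendritic cells to 578 ± 91.0 in dermal papilla cells. H2-T23 was highest in lymphatic endothelial (196 ± 69.1 CPM) and endothelial cells (183 ± 49.5), again without a difference beyond the SD. H2-Q4 was highest in endothelial cells at 117 ± 30.8 CPM. The unnamed cluster 25 lay above the leading named class for H2-K1 (2488 ± 303 CPM), H2-D1 (3847 ± 243), H2-T23 (217 ± 74.4), H2-Q4 (141 ± 29.8) and B2m (2413 ± 255, n = 4 each), beyond the larger SD for H2-K1 and H2-D1 only. Cluster 5 was above it for H2-K1 (1866 ± 525 CPM), H2-T23 (220.1 ± 86.7) and H2-Q4 (126 ± 34.7, n = 5 each), and cluster 19 for H2-K1 (1655 ± 285, n = 3), within the larger SD. Cluster 33 had less H2-D1 than dermal papilla cells, 514 ± 215 CPM (n = 3), again within the SD. Among the named classes B2m was highest in macrophages or monocytes (2225 ± 496 CPM) and lowest in skeletal muscle cells (331 ± 122, n = 3). Tapbp was highest in fibroblasts, 182 ± 18.1 CPM, above endothelial cells at 160 ± 11.2 by a little more than the SD. Cluster 38 had 214 CPM of Tapbp in the 1 control library that held enough of its cells. Most other neighbours in these orders differed by less than the larger SD. Basal keratinocytes joined 2 unlike clusters. The one led by Krt24, 58.0% of control cells of the class, had control means of 366 CPM for H2-K1, 411 for H2-D1 and 398 for B2m. The one led by Ly6d had 1164, 1356 and 1488 CPM. The Krt24 means of H2-K1 and H2-D1 were thus below those of dermal papilla cells. Of the last 600 transcript bases, from which these counts are read, 44.8% of the 50-base words of H2-T23 and 28.3% of those of H2-Q4 also occur in other genes, against 7.80% for H2-D1, 2.18% for H2-K1 and 0 for the remaining members. Counts of H2-T23 and H2-Q4 are therefore uncertain, since reads could have been assigned to, or lost with, other genes. Those sharing most words with H2-T23 were H2-Q1, Rab33b, H2-T-ps and Gm7030. For H2-Q4 they were Gm43321, Olfr1238, Olfr552 and Gm8956, none a heavy chain by symbol.

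**Figure D1:**
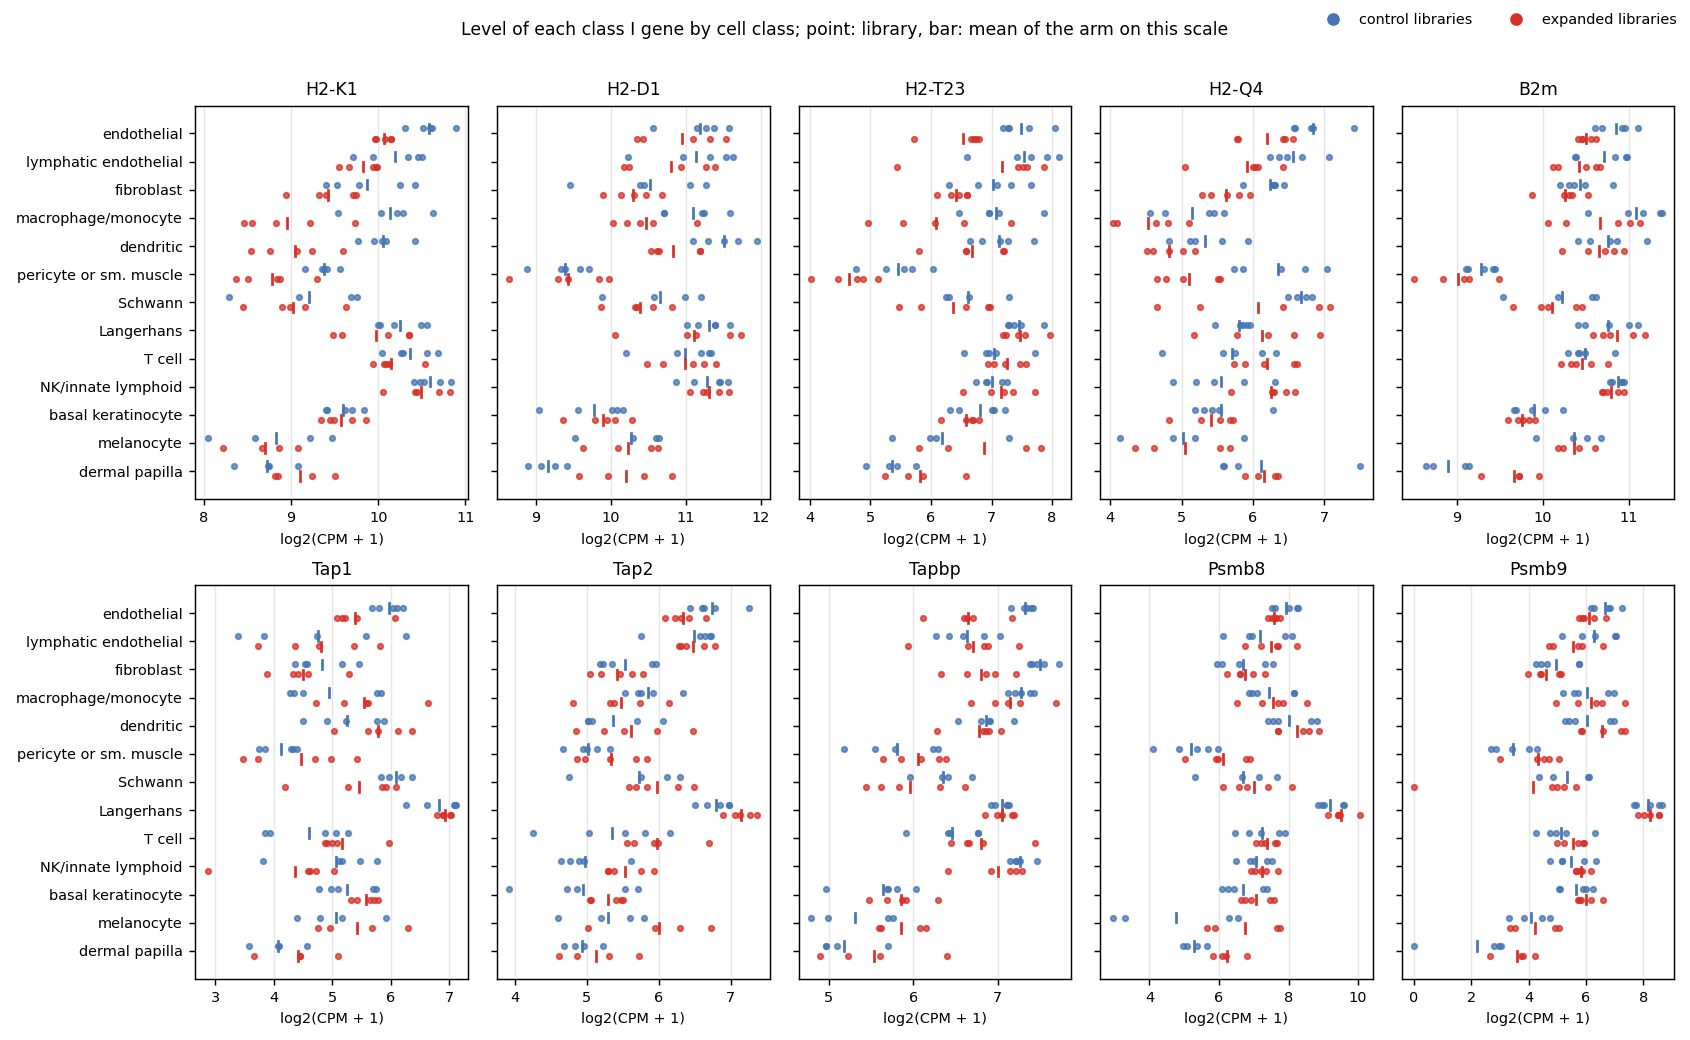
Level of each of the 10 class I genes, as log2(CPM + 1) on the horizontal axis, in 13 cell classes on the vertical axis; each point is 1 library (control blue, expanded red) and the bar is the mean of the arm. Langerhans cells stand to the right for Psmb8 and Psmb9, and the red points of dermal papilla cells lie to the right of the blue points for H2-D1, B2m and Psmb8.

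Endothelial cells had lower levels of all 10 genes in the expanded arm. The median log2 difference of the set was -0.66, where the median over all genes tested in the class was 0.02. By edgeR's quasi-likelihood test 8 of the 10 were called lower at an adjusted p of at most 0.05, all but H2-D1 and Psmb8, in a class where 6.08% of all genes were called lower and 5.34% higher. H2-K1 stood at 1457, 1540, 1262, 1573 and 1897 CPM in the control libraries of day 1 (rounds 1 and 2), day 2 (rounds 1 and 2) and day 4, and at 1137, 997, 1079, 1133 and 1003 CPM in the expanded libraries in the same order. Every expanded library lay below every control library, and the log2 difference was -0.62 ± 0.12 (standard error).

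H2-T23 was at 156, 197, 145, 154 and 264 CPM in control endothelial libraries and at 110, 100.5, 51.5, 103 and 106 CPM in expanded ones, without overlap, with a log2 difference of -1.06 ± 0.16. Tapbp was at 168, 162, 142, 158 and 171 CPM against 143, 98.4, 68.4, 96.3 and 104 CPM, and its log2 difference was -0.76 ± 0.14. The highest expanded library, of day 1, round 1, just reached the range of the controls. B2m, at 1558 to 2210 CPM in control and 1355 to 1578 CPM in expanded libraries, differed by -0.46 ± 0.11. Tap1 (-0.70 ± 0.18), Tap2 (-0.51 ± 0.11), Psmb9 (-0.71 ± 0.18) and H2-Q4 (-0.75 ± 0.20) were lower as well on the log2 scale. H2-D1, at 1519 to 3053 CPM in control and 1302 to 2976 CPM in expanded libraries, overlapped almost fully and differed by -0.30 ± 0.20. Psmb8 differed by -0.48 ± 0.15 and was not called.

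The endothelial class joins 2 clusters, led by Rbp7 and by Selp, an adhesion molecule of venules. In the first, which held 79.4% of control and 87.1% of expanded endothelial cells, all 10 genes had a lower mean in the expanded arm. In the second 9 of 10 were lower. Fibroblast marker transcripts in the endothelial class summed to 1030 to 2794 CPM in control and 24.1 to 4367 CPM in expanded libraries, and 0 of 6 tested markers were called. Their part in these differences was not tested. The count of called members fell to 3 without the day 4 control library or without the day 4 expanded library. It fell to 5 without the day 1, round 2 library of either arm or the expanded library of day 2, round 1. With cells thinned to 2000 UMIs, and those with fewer left out, it was 2.

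**Figure D2:**
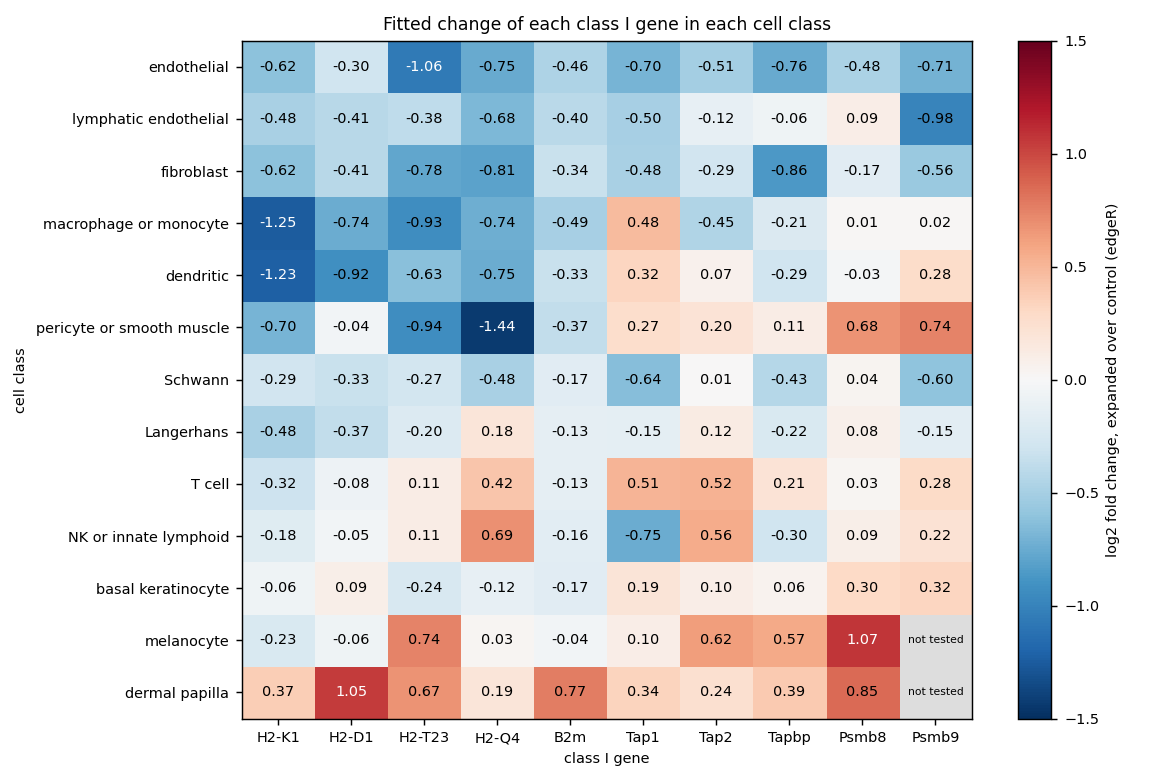
Fitted log2 difference (expanded over control) of each class I gene (columns) in each of 13 cell classes (rows), with the value printed in each cell and grey where the gene was not tested. The endothelial and fibroblast rows hold only negative values, the dermal papilla row only positive values, and macrophage and dendritic rows are negative for the heavy chains and near 0 for Psmb8.

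Fibroblasts showed lower mean levels of all 10 genes too, with a median log2 difference of -0.52. H2-K1, H2-T23, H2-Q4 and Tapbp were called lower, 4 of 10, where 13.6% of all genes in the class were called lower and 13.5% higher. Tapbp was at 211, 175, 169, 187 and 166 CPM in control libraries and at 148, 115, 124, 79.3 and 98.5 CPM in expanded ones. No expanded library reached the control range, and the log2 difference was -0.86 ± 0.13. H2-T23 was at 77.6, 108, 136, 159 and 201 CPM in control and 87.2, 95.4, 67.9, 80.0 and 95.9 CPM in expanded fibroblasts, where only the day 1, round 1 control library lay within the expanded range, with a log2 difference of -0.78 ± 0.17. H2-Q4 differed by -0.81 ± 0.15. H2-K1 was at 734, 880, 677, 1221 and 1367 CPM against 838, 636, 855, 492 and 678 CPM, the expanded library being the higher of its pair in round 1 of days 1 and 2, and it differed by -0.62 ± 0.20. H2-D1 (-0.41 ± 0.21), Tap1 (-0.48 ± 0.20), Psmb9 (-0.56 ± 0.22) and Psmb8 (-0.17 ± 0.23) were not called.

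Different clusters held most fibroblasts in the 2 arms. The cluster led by C4b held 34.3% of control and 9.03% of expanded fibroblasts, and the one led by Igfbp2 held 9.21% and 31.3%. Within the Igfbp2 cluster the mean over libraries was lower in the expanded arm for all 10 genes, for example 1157 against 741 CPM for H2-K1. All 10 were also lower in the Grem1 cluster, 9 of 10 in the Apod cluster and 8 of 10 in the cluster led by Cpz. In the Lrrc15 cluster 7 of 10 had a higher mean in the expanded arm, with a median log2 ratio of 0.11. These cluster values are ratios of means with no test. Macrophage or monocyte markers in fibroblasts summed to 54.1 to 88.0 CPM in control and 33.9 to 131 CPM in expanded libraries, and their part was not tested. Without any one library the count of called members ran from 3 to 6, and with either day 4 library left out it was 3.

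In macrophages or monocytes H2-K1 and H2-D1 were called lower in the expanded arm, 2 of 10, and no processing gene was called, where 10.4% of all genes were called lower and 10.2% higher. A count of 2 in 10 was not far above the share called lower. H2-K1 was at 1247, 1184, 1044, 740 and 1576 CPM in control libraries and at 847, 351, 375, 454 and 595 CPM in expanded ones. Each expanded library lay below its control of the same day and round, only the day 1, round 1 expanded library reached the control range, and the log2 difference was -1.25 ± 0.22. H2-D1 was at 1679, 2435, 2392, 1680 and 3081 CPM against 1346, 1184, 1043, 1507 and 2282 CPM, a log2 difference of -0.74 ± 0.19. H2-T23, with a difference of -0.93 ± 0.39, ranged from 30.3 to 158 CPM in expanded libraries, the highest being that of day 2, round 2. B2m differed by -0.49 ± 0.22.

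For the transporter and the immunoproteasome in the same cells the values were 0.48 ± 0.30 for Tap1, -0.45 ± 0.20 for Tap2, 0.01 ± 0.26 for Psmb8 and 0.02 ± 0.34 for Psmb9 on the log2 scale, and none was called. Tap1 was at 18.4, 21.6, 19.4, 53.4 and 56.2 CPM in control and 35.9, 25.5, 47.9, 98.0 and 46.8 CPM in expanded macrophages, higher in 4 of the 5 expanded libraries than in their matching control. The clusters within this class changed between arms. The cluster led by Cd209f, with the resident macrophage genes Folr2 and C1qa among its leading genes, held 50.4% of control and 4.07% of expanded cells, and the cluster led by Chil3, with the monocyte gene Ly6c2, held 18.6% and 69.8%. Within the Chil3 cluster mean H2-K1 was 900 CPM in control (n = 4) and 396 CPM in expanded libraries (n = 5). Within the cluster led by Pf4 it was 1416 and 680 CPM. The log2 ratios of these means were -1.18 and -1.06.

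Dendritic marker transcripts in the macrophage class summed to 6699 to 16465 CPM in control and 1071 to 4831 CPM in expanded libraries, with 4 of 6 tested markers called lower. Neutrophil markers there summed to 55.6 to 110.0 and 334 to 1833 CPM, with 3 of 5 called higher. Their part in the H2-K1 and H2-D1 values was not tested. The count of called members was 1 without the day 4 library of either arm, without the day 2, round 1 library of either arm or without the day 1, round 2 control library, and for the round 2 libraries of day 2 it was 4 with the control one left out and 5 with the expanded one left out.

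In dendritic cells, 1 cluster in both arms, H2-K1, H2-D1 and H2-Q4 were called lower, 3 of 10, where 10.1% of all genes were called lower and 8.9% higher. H2-K1 was at 1090, 1052, 986, 873 and 1376 CPM in control and 773, 534, 433, 370 and 606 CPM in expanded libraries, without overlap, with a log2 difference of -1.23 ± 0.15. H2-D1 was at 2199, 2911, 3974, 2529 and 3313 CPM against 1571, 2336, 1480, 1600 and 2331 CPM, and differed by -0.92 ± 0.20. H2-Q4 differed by -0.75 ± 0.22, but with cells thinned to 2000 UMIs its value was 0.11. Tap1 (0.32 ± 0.20), Tap2 (0.07 ± 0.24), Psmb8 (-0.03 ± 0.21) and Psmb9 (0.28 ± 0.25) were not called. Fibroblast markers in dendritic cells summed to 150 to 3933 CPM in control and 38.3 to 293 CPM in expanded libraries, all 5 tested markers being called lower, and macrophage or monocyte markers to 5661 to 10368 and 2916 to 6220 CPM, 2 of 7 called lower. Their part was not tested. Without 1 library the count of called members ran from 2 to 4, 2 being the count without either day 4 library.

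Pericytes or smooth muscle cells, the mural cells of vessels, had 3 heavy chains called lower, where 11.2% of all genes were called lower and 7.96% higher. H2-Q4 was at 57.4, 130, 105, 52.2 and 83.4 CPM in control and 44.4, 45.5, 31.5, 26.5 and 24.3 CPM in expanded libraries. The arms did not overlap and the log2 difference was -1.44 ± 0.26. H2-K1 was at 680, 757, 654, 571 and 666 CPM against 629, 467, 458, 363 and 328 CPM, a difference of -0.70 ± 0.15, and H2-T23 differed by -0.94 ± 0.23. H2-D1 was at 472 to 840 CPM and 400 to 1004 CPM, with a difference of -0.04 ± 0.20. Psmb8 (0.68 ± 0.30) and Psmb9 (0.74 ± 0.36) had positive values and were not called, so the median of the set was 0.04. With thinned cells that median was -0.56, a value that may rest on fewer of the genes. Fibroblast markers in this class summed to 593 to 21338 CPM in control and 1011 to 8284 CPM in expanded libraries, with 0 of 6 called, the dendritic markers Xcr1 and Clec9a and the neutrophil marker Retnlg were at 0, and the part of such transcripts was not tested. Of the 3 calls 1 was left without the day 4 expanded library and 2 without the day 4 control library.

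In lymphatic endothelial cells 1 of the 10 genes was called lower, Psmb9, where 5.73% of all genes were called lower and 5.98% higher. A count of 1 in 10 was near the share called lower. Psmb9 was at 34.5, 79.3, 57.3, 132 and 127 CPM in control and 28.0, 25.1, 57.6, 95.8 and 51.8 CPM in expanded libraries. The arms overlapped, and the log2 difference was -0.98 ± 0.25. It was not called without either day 4 library or without the day 1, round 2 control library. Psmb8 in the same libraries differed by 0.09 ± 0.21. H2-K1 (-0.48 ± 0.17), H2-Q4 (-0.68 ± 0.23) and B2m (-0.40 ± 0.17) were not called, and the median of the set was -0.41. Fibroblast markers summed to 1174 to 14612 CPM in control and 97.8 to 10474 CPM in expanded lymphatic libraries, with 4 of 6 called lower, and the monocyte marker Ly6c2 was at 0. Their part was not tested.

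In dermal papilla cells H2-D1, B2m and Psmb8 were called higher in the expanded arm, 3 of the 9 genes tested (Psmb9 was too low), where 2.22% of all genes were called higher and 1.48% lower. All 9 had positive fitted differences, with a median log2 difference of 0.39. Mean H2-Q4, however, was lower in the expanded arm, 70.9 ± 10.6 against 82.5 ± 65.9 CPM, where the control library of day 2, round 1 stood at 181 CPM. This class had 4 libraries per arm, since day 1, round 1 had too few cells. H2-D1 was at 476, 536, 614 and 685 CPM in the control libraries of day 1 (round 2), day 2 (rounds 1 and 2) and day 4, and at 764, 997, 1398 and 1796 CPM in the expanded ones. Every expanded library was above every control library, and the log2 difference was 1.05 ± 0.18. B2m was at 545, 400, 421 and 566 CPM against 623, 845, 844 and 990 CPM, again without overlap, with a difference of 0.77 ± 0.19. Psmb8 was at 33.0, 30.2, 49.4 and 40.1 CPM against 73.0, 66.9, 111 and 55.7 CPM, and differed by 0.85 ± 0.23. H2-K1, by contrast, was at 425, 325, 430 and 539 CPM against 449, 727, 461 and 605 CPM and differed by 0.37 ± 0.20.

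Fibroblast markers in dermal papilla cells summed to 4692 to 18882 CPM in control and 2072 to 5183 CPM in expanded libraries, with 4 of 7 called lower and 1 higher, while macrophage or monocyte markers summed to 22.6 to 107 and 15.6 to 119 CPM. The dendritic marker Clec9a was at 0. The part of these transcripts was not tested. Depth differed less here than elsewhere, with medians of 4969.5 and 5385 UMIs per cell. The count of called members was 0 without the day 4 library of either arm, 1 without either day 2 control library and 2 without any other. The median of the set stayed positive in each of these fits, between 0.35 and 0.73.

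In 6 classes none of the members was called: Langerhans, T cell, natural killer or innate lymphoid, basal keratinocyte, melanocyte and Schwann. The shares of all genes called in either direction there were 4.02%, 0.239%, 0.643%, 12.1%, 1.3% and 0.169%, so that basal keratinocytes, with 6.24% called higher and 5.84% lower, were the one class of the 6 where calls were common. In basal keratinocytes the 10 differences ran from -0.24 to 0.32, and H2-K1 was at 678, 676, 786, 829 and 911 CPM in control and 718, 698, 926, 833 and 648 CPM in expanded libraries. In Langerhans cells they ran from -0.48 (H2-K1) to 0.18 (H2-Q4), and Psmb8 was at 516, 463, 496, 778 and 757 CPM against 714, 562, 690, 685 and 1074 CPM. T cells ranged from -0.32 (H2-K1) to 0.52 (Tap2) and natural killer or innate lymphoid cells from -0.75 (Tap1) to 0.69 (H2-Q4). In melanocytes Psmb8 was at 6.66, 8.89, 77.3 and 92.3 CPM in control and 57.7, 203, 213 and 49.8 CPM in expanded libraries, where the order of the arms turned on day 4, and its difference was 1.07 ± 0.42. In melanocytes 2 members were called higher without either day 4 library. The main fit called 63 of 4829 genes there. The shares of all genes called in the refits are not given here, so that count cannot be set against them. In Schwann cells the differences ran from -0.64 to 0.04 with standard errors of up to 0.38. With each pair of libraries as a block the number of all genes called grew from 29 to 57 in natural killer, from 18 to 53 in T and from 11 to 72 in Schwann cells, and still none of the members was among them. A call that was not made does not show that the arms were alike.

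The differences varied by day. In endothelial cells the median log2 ratio of the 10 genes within a day and round was -0.21 and -0.42 on day 1, -0.55 and -0.40 on day 2 and -0.73 on day 4. In fibroblasts it was 0.19, -0.33, 0.00, -0.91 and -0.69 in that order, so that the negative values came from round 2 and day 4. On day 4 all 10 genes were lower in the expanded library in endothelial cells, fibroblasts, macrophages, basal keratinocytes and Schwann cells. Basal keratinocytes had median ratios of 0.32 and 0.31 on day 1 and -0.36 on day 4, T cells 0.56 and 0.37 on day 1 and -0.28 on day 4, and melanocytes 1.18 on day 1 (round 2) and -0.82 on day 4. In dermal papilla cells the medians were 0.38 on day 1, 0.77 and 1.09 on day 2 and 0.23 on day 4. Day 4 had 1 library per arm, so the day differences had no replicate check there and were not tested. The ratios by day are of unscaled CPM, so their size is not directly comparable with the fitted differences.

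**Figure D3:**
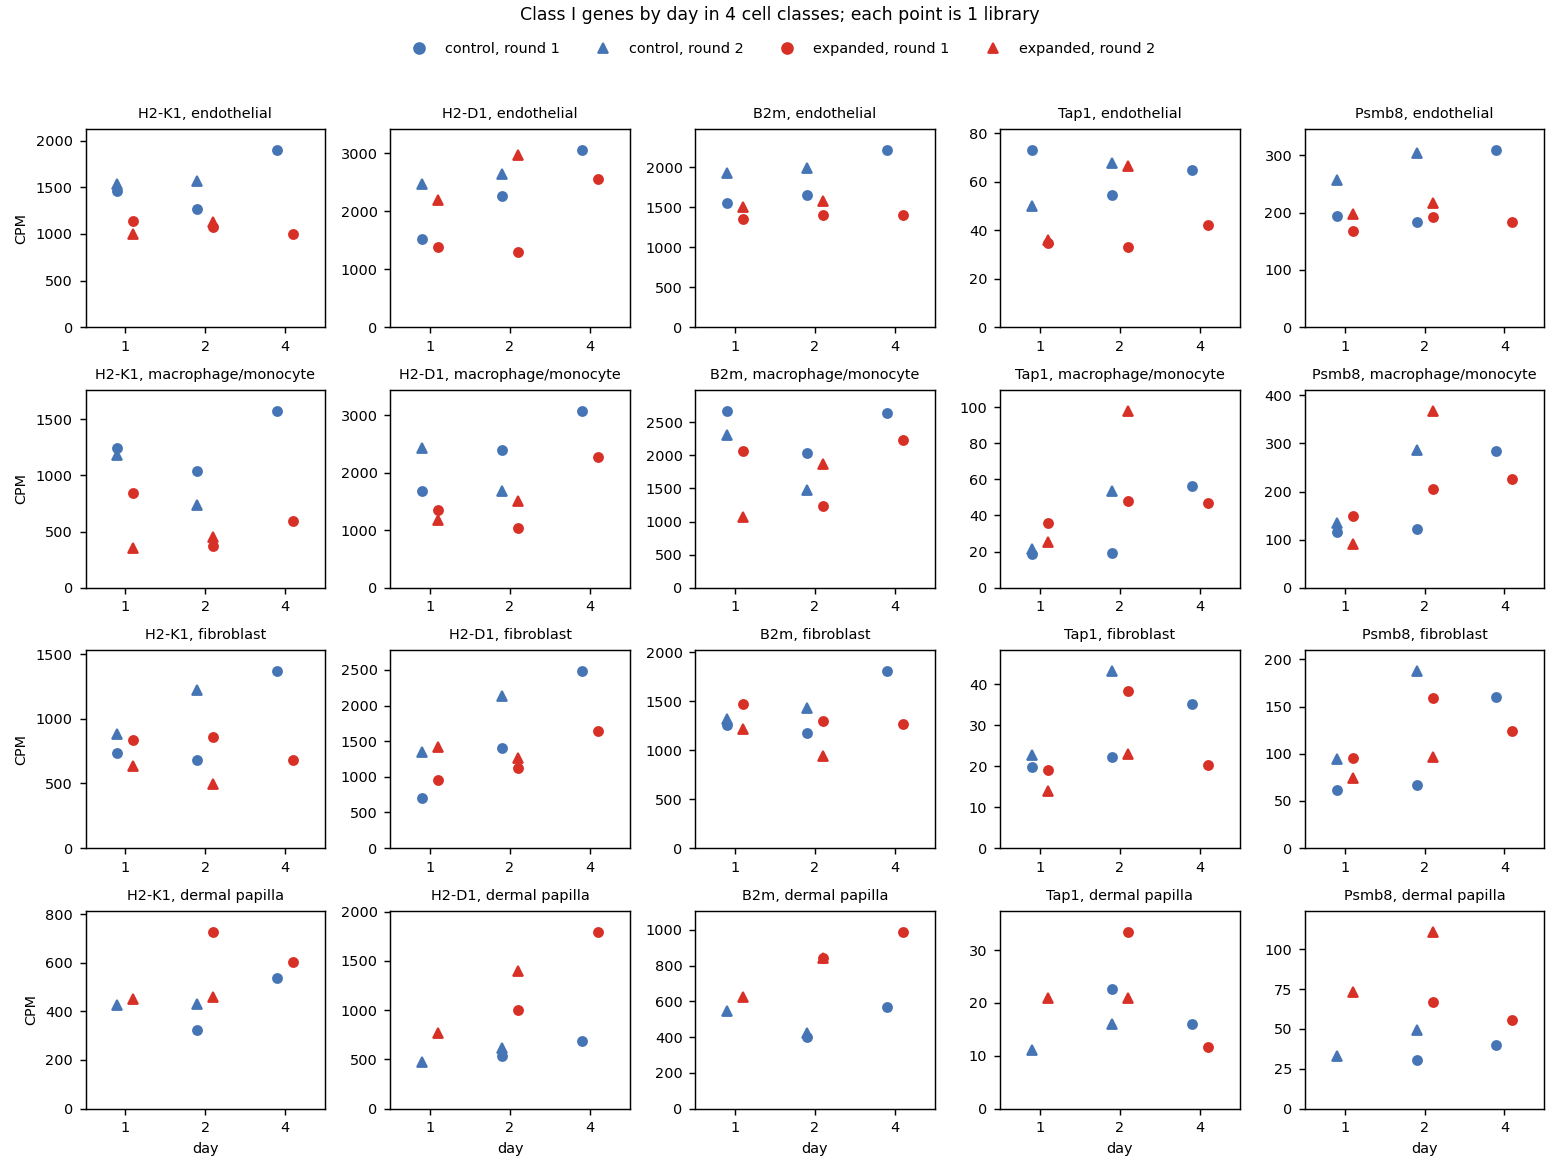
CPM of H2-K1, H2-D1, B2m, Tap1 and Psmb8 (columns) in endothelial cells, macrophages, fibroblasts and dermal papilla cells (rows) on days 1, 2 and 4; each point is 1 library, blue for control and red for expanded, with circles for round 1 and triangles for round 2. Red H2-K1 points lie below the blue ones of the same day and round in the endothelial and macrophage rows on each day, and red H2-D1 points lie above the blue ones in the dermal papilla row.

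Some library patterns crossed the classes. In 10 of the 10 classes with 5 control libraries H2-D1 was lowest in the day 1, round 1 control library, and Psmb8 had its 2 highest control values in the libraries of day 2, round 2 and day 4. The same pair of control libraries was on top for Psmb9 in 9, Tap2 in 8 and Tap1 in 7 of those classes, but for H2-Q4 and Tapbp in 0. H2-T23 was lowest in the expanded library of day 2, round 1 in 9 of 11 classes with 5 expanded libraries. The classes share these libraries, so the counts are not independent.

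Hashtags assigned most cells of the immune classes to single mice, but only 40.5% of the endothelial, 36.8% of the fibroblast and 32.7% of the basal keratinocyte cells in libraries with hashtag counts. A second fit took mice as units in place of libraries. It held no cells of day 1, round 1, for which no hashtag counts were analysed here. The assigned share was 98.4% in macrophages and 10.8% in dermal papilla cells. In control endothelial cells mean H2-K1 was 1819 CPM over 10 mice, against 1546 over the 5 libraries, and mean B2m 2165 against 1868. Whether the assignment of a cell depended on its class I level was not tested. In macrophages H2-K1 had a median of 1169 CPM (range 604 to 1746) over 14 control mice and 459 CPM (264 to 691) over 12 expanded mice, with a log2 difference of -1.40 ± 0.14. The ranges overlapped at their ends only. In dendritic cells the medians were 1060 CPM (569 to 1551) and 535 CPM (327 to 771, 9 mice), and the difference was -1.29 ± 0.12. Members called lower numbered 8 of 10 in endothelial cells, 8 in fibroblasts (4 over libraries), 6 in macrophages, 5 in dendritic cells, 1 in basal keratinocytes (B2m) and 0 of 9 in T cells. The shares of all genes called lower in those mouse fits were 4.87%, 14.6%, 23.2%, 19.3% and 15.9%, and in T cells 2.42% of genes were called in either direction. Psmb9 in dendritic cells was called higher (0.42 ± 0.17), where 18.9% of genes were. H2-T23 differed by -1.46 ± 0.31 in endothelial cells and by -1.41 ± 0.21 in fibroblasts. The endothelial fit held 10 control and only 5 expanded mice, 1 of day 1, 4 of day 4 and none of day 2. It therefore rested mostly on day 4, where each arm had 1 reaction. Mice of an arm and round shared 1 reaction, so mice are not fully separate.

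This and the other gene lists below were chosen with earlier results of these data known. The adjusted p-values given for their genes are therefore descriptive. Some constitutive proteasome genes were called higher in 7 classes. Of 14 constitutive core subunits, edgeR called 13 higher in fibroblasts, 12 in lymphatic endothelial cells, 10 each in macrophages, dendritic cells and pericytes, 9 in endothelial cells and 4 in basal keratinocytes. The shares of all genes called higher in those classes were 13.5%, 5.98%, 10.2%, 8.9%, 7.96%, 5.34% and 6.24%, in the same order. None was called lower in any class, and none was called in the other 6 classes. The medians of the list were 0.67 in fibroblasts, 0.74 in lymphatic endothelial cells, 0.63 in macrophages, 0.57 in pericytes, 0.55 in dendritic cells and 0.43 in endothelial cells. Psmb5, the catalytic subunit that PSMB8 replaces, was at 40.7, 65.0, 55.7, 104 and 94.8 CPM in control fibroblasts and at 156, 150, 213, 152 and 177 CPM in expanded ones. It rose by 1.11 ± 0.17 on the log2 scale (edgeR, adjusted p = 0.00126), and the arms did not overlap. Psmb6, which PSMB9 replaces, rose by 0.72 ± 0.14 there (edgeR, adjusted p = 0.00358), while Psmb8 and Psmb9 had the values of -0.17 and -0.56 given above.

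In endothelial cells Psmb5 was at 96.5, 111, 71.0, 105 and 90.9 CPM in control and 146, 179, 208, 170 and 162 CPM in expanded libraries, again without overlap, and rose by 0.75 ± 0.14 (edgeR, adjusted p = 0.00847). The call was lost with thinned cells. Psmb5 rose in pericytes by 1.16 ± 0.15 (edgeR, adjusted p = 0.000871), in lymphatic endothelial cells by 0.96 ± 0.20 (0.0062), in dendritic cells by 0.87 ± 0.19 (0.0122) and in macrophages by 0.82 ± 0.17 (0.0104). In dermal papilla cells 10 of the 14 constitutive genes had negative values, with a median of -0.13 and none called, where Psmb8 was among the members called higher. Psmb10, the third immunoproteasome catalytic subunit, was called in no class, with -0.44 ± 0.14 in endothelial cells (edgeR, adjusted p = 0.0611) and 0.47 ± 0.15 in basal keratinocytes (adjusted p = 0.0556). Numbers of called proteasome genes fell without single libraries, to 2 in macrophages without the day 4 expanded library, and to 3 in lymphatic endothelial cells and 4 in dendritic cells without the day 4 control library.

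**Figure D4:**
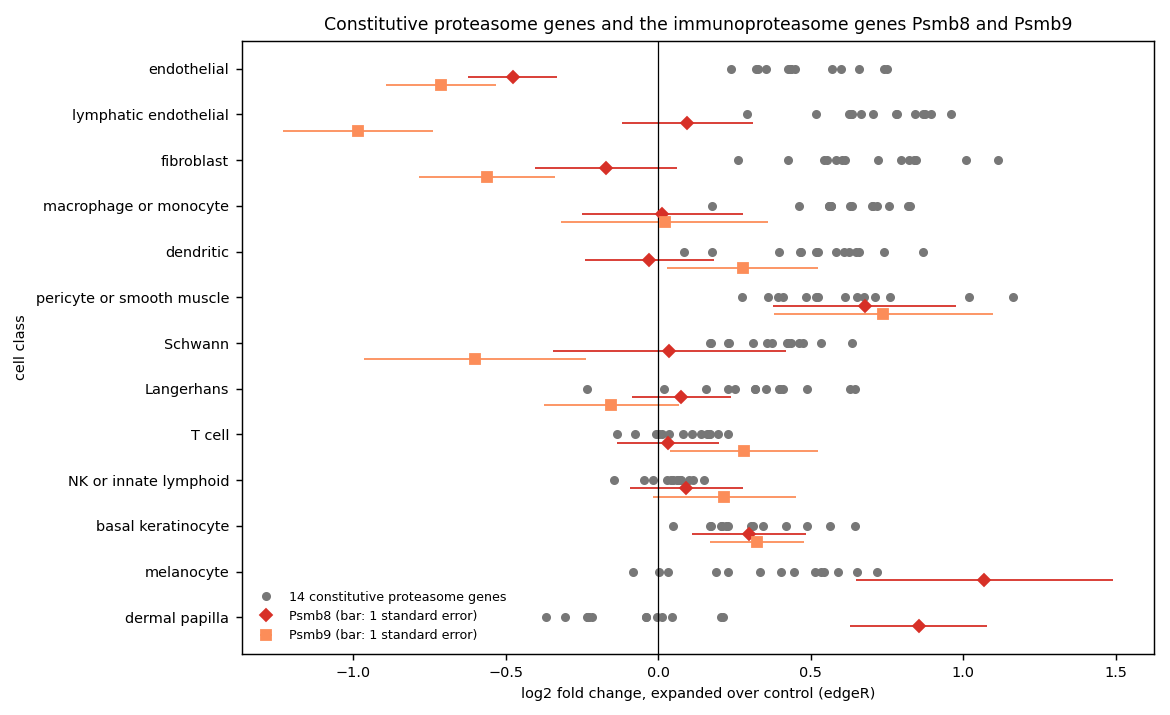
Fitted log2 difference (expanded over control, horizontal axis) of 14 constitutive proteasome genes (grey points) and of Psmb8 and Psmb9 (red diamonds and orange squares, with 1 standard error) in 13 cell classes. In endothelial cells and fibroblasts every grey point is above 0 and both immunoproteasome genes are below 0, and in dermal papilla cells Psmb8 lies to the right of all grey points.

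Among 18 further class I genes (other heavy chains, class I-like molecules, the PA28 activator, chaperones and the trimming enzyme Erap1), the Qa-2 heavy chains H2-Q6 and H2-Q7 recurred. H2-Q7 was at 135, 149, 117, 85.4 and 79.7 CPM in control and 50.6, 72.1, 55.1, 82.2 and 44.0 CPM in expanded endothelial libraries, with 1 expanded library inside the control range, and fell by 1.01 on the log2 scale (edgeR, adjusted p = 0.00632). It fell by 0.88 in fibroblasts (edgeR, adjusted p = 0.00311), by 1.05 in lymphatic endothelial cells (0.00654), by 1.51 in dendritic cells (0.00713) and by 1.35 in macrophages (0.0155, not called without either day 4 library). H2-Q6 was called lower in the same 5 classes, a call lost without 1 or more single libraries in endothelial, lymphatic endothelial and dendritic cells and macrophages, and in macrophages also with the pair block (-1.33). Its reads, like those of H2-Q7, may be shared with near copies. Fcgrt, the neonatal Fc receptor that also pairs with beta-2 microglobulin, fell by 0.85 in endothelial cells (edgeR, adjusted p = 0.0117), by 1.51 in macrophages (adjusted p = 0.0185), by 0.66 in fibroblasts (adjusted p = 0.000806) and by 0.76 in basal keratinocytes (adjusted p = 0.0394). The endothelial call was lost when thinned, the macrophage call without either day 4 library or the day 1, round 1 control library, and the basal call without most single libraries. The fibroblast value was added after it was seen and has no alternatives.

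By class, the partner genes called lower numbered 4 of 16 in endothelial cells, 4 of 17 in fibroblasts, 4 of 18 in macrophages, 2 of 15 in dendritic cells, 2 of 14 in lymphatic endothelial cells and 1 of 16 in basal keratinocytes. Of all genes 6.08%, 13.6%, 10.4%, 10.1%, 5.73% and 5.84% were called lower in these classes, so that the counts in dendritic and basal cells were near the background. Those called higher were Psme1 (PA28 alpha) in fibroblasts, 0.37, and in pericytes, 0.43, and Tapbpl in Langerhans cells, 0.83, which was lost without most single libraries. The medians of the tested partner genes were -0.40 in endothelial cells, -0.28 in fibroblasts, -0.19 in macrophages and -0.11 in dendritic cells. No partner gene was called in dermal papilla cells, where 12 were tested with a median of 0.02.

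Of the 14 genes from interferon gamma to class I transcription, Irf1 fell in 3 classes. This transcription factor binds the interferon response element of class I promoters. In lymphatic endothelial cells it was at 427, 405, 420, 346 and 435 CPM in control and 136, 212, 107, 187 and 178 CPM in expanded libraries, without overlap, and fell by 1.37 on the log2 scale (edgeR, adjusted p = 0.0004). In endothelial cells it was at 484, 396, 513, 526 and 557 CPM against 330, 257, 196, 238 and 280 CPM and fell by 1.03 (edgeR, adjusted p = 0.00232). In pericytes it was at 450, 445, 438, 445 and 505 CPM against 263, 366, 173, 179 and 222 CPM and fell by 1.08 (edgeR, adjusted p = 0.00133). Irf1 was called in no other class, with -0.38 ± 0.18 in fibroblasts, 0.56 ± 0.18 in macrophages (edgeR, adjusted p = 0.0505) and 0.28 ± 0.23 in dermal papilla cells.

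With each pair of libraries as a block, Irf1 in macrophages (0.55) passed the threshold. Nlrc5 was called in no class and was low, at 6.60 to 12.1 CPM in control and 3.55 to 12.8 CPM in expanded endothelial libraries. Endothelial cells had 3 of 13 tested genes of the list called lower, the others being Irf9 and Irf2. In macrophages Irf9, Irf2 and Rfxap were called higher and Irf8 lower (fell by 0.83, edgeR, adjusted p = 0.00749), and in dendritic cells Rfxank and Irf9 were called higher and Jak1 and Jak2 lower. Basal keratinocytes had Jak1, Jak2 and Irf2 called lower, fibroblasts Jak1, and Langerhans cells Ifngr1. The calls of Ifngr1, and of Jak1 and Jak2 in basal keratinocytes, were each lost without several single libraries. Beside these counts of 1 to 3 genes, the shares of all genes called lower were 6.08% in endothelial cells, 10.4% in macrophages, 10.1% in dendritic cells, 5.84% in basal keratinocytes and 13.6% in fibroblasts, and those called higher were 10.2% in macrophages and 8.9% in dendritic cells. The 1 call of 13 in fibroblasts and the 1 lower call of 13 in macrophages were near these shares. Irf1 was the only gene of the list called in pericytes and in lymphatic endothelial cells. There 11.2% and 5.73% of all genes were called lower, so these single calls were near the shares as well. In Langerhans cells 4.02% of all genes were called in either direction. No gene of the list was called in T cells, natural killer, Schwann, melanocyte or dermal papilla cells.

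On the receiving side, 5 receptor genes were listed. Klrd1, the CD94 chain of the receptor that reads Qa-1, was at 115, 132, 123, 142 and 157 CPM in control T cells and at 288, 294, 318, 409 and 398 CPM in expanded ones. The arms lay far apart, and Klrd1 rose by 1.24 ± 0.12 on the log2 scale (edgeR, adjusted p = 0.00029), 1 of 18 genes called in that class. The mix of T cell clusters differed between arms. The Ikzf3 cluster held 43.3% of control and 33.6% of expanded T cells, the Cd6 cluster 14.8% and 26.3%, and the Trdc cluster 41.9% and 40.1%. The part of this mix in the value was not tested. In natural killer or innate lymphoid cells Klrd1 was at 183 to 275 and 254 to 432 CPM and rose by 0.67 ± 0.15 (edgeR, adjusted p = 0.0499), a call that was lost whichever library was left out. H2-T23, whose product it reads, had values of 0.11 ± 0.14 in T cells and 0.11 ± 0.20 in natural killer cells. Klrd1 and Pirb, an inhibitory class I receptor of myeloid cells, were also called higher in dendritic cells. With each pair of libraries as a block Klrd1 was no longer called there, at a value of 1.18.

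Over the means of 17 classes in each arm with enough libraries (33 points), H2-D1 and B2m rose and fell together most closely (Pearson r = 0.89), followed by Psmb8 and Psmb9 (r = 0.88). H2-Q4 was the least like the rest, with r = 0.05 to H2-T23 and r = 0.11 to B2m. Among 6307 other genes, those most like the mean of the members were H2-Q6 (r = 0.75), Dbnl (0.73), Gbp9 (0.72), H2-Q7 (0.72), Psme1 (0.72), Dock4 (0.70), Lpar6 (0.70), Ubac2 (0.70), Map3k1 (0.69) and Psmb10 (0.69). Irf1 had r = 0.04. The points share libraries and depth, and the 2 arms of a class count as separate points, so these values describe the pattern only.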

How the data were processed

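Skin cells were profiled with 10x Genomics single-cell RNA libraries. The authors deposited UMI counts per gene and barcode, made with Cell Ranger 6.1.2 on build mm10 per the submitters' processing notes, and hashtag counts for 8 samples. The group of each library came from its labels. The titles of 2 day 1, round 2 control samples appear exchanged, so their kind was taken from the library type.

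Of 55174 barcodes 47251 passed the limits (200 genes or more, 500 UMIs or more, a mitochondrial share up to 10%), and 1778 doublets were removed by scrublet and, where hashtags existed, HTODemux (Seurat 5.3.0). Scrublet alone marked few cells in the shallow libraries. Cells were clustered with scanpy 1.11.5 (2000 variable genes, 30 components, 15 neighbours, Leiden resolution 1) without integration. Clusters were named from marker lists, and details of the naming score were set while clusters were examined. The members and all gene lists were chosen with earlier results of these data known. Pathway genes named are those with the largest changes among the called genes of each list, up to 5 per class, plus Nlrc5, Irf1, Psmb10, Psmb5, Psmb6 and Psmb7; 1 further gene of this rule is not reported here.

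Counts were summed per class and library with at least 20 cells and fitted by edgeR 4.0.16 (TMM scaling, filterByExpr, day and arm as terms, quasi-likelihood test), with Benjamini-Hochberg adjustment over all genes of a class and a threshold of 0.05. Differences are log2 of expanded over control. CPM are unscaled. The pipeline was tested on simulated data: per class 36% to 80% of genes changed by a log2 of 1 were recovered, and 84% to 96% of those changed by 2. The labels give each day and round a control and an expanded library, which pairs them. Over 62 such pairs in 13 classes the deviations from the arm mean correlated with a median r of 0.23 (range -0.17 to 0.64), over 0.1 in 49 pairs. These deviations include any day effect common to both arms, so r does not measure pairing by round alone. Alternatives were DESeq2 1.42.0, no count filter, leaving out each library, the pair as a block, thinning to 2000 UMIs, clustering without the listed genes, mice as units and a 5% mitochondrial limit. Thinning also dropped every cell with fewer than 2000 UMIs. Median depth was lower in control cells, so the dropped share may differ between arms.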

Additional observations from a re-analysis of the deposited data

Results flagged for a closer look

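Of 260 groups of 4 or 5 libraries (10 genes, 13 classes, 2 arms), 11 had 1 library far from the others. Chance alone is expected to single out about 1 in 20 groups. In endothelial cells H2-Q4 reached 170 CPM in the day 2, round 1 control library (next 114), H2-T23 was lowest at 51.5 CPM in the expanded library of day 2, round 1 (next 100.5), and Tap1 reached 66.6 CPM in the expanded library of day 2, round 2 (next 41.9). The same control library of day 2, round 1 was highest for H2-Q4 in dermal papilla cells, 181 CPM (next 54.5), and in basal keratinocytes, 76.8 CPM (next 45.0). In T cells the expanded library of day 2, round 2 was highest for Tap1, 61.9 CPM (next 32.9), and Tap2, 103 CPM (next 62.3), and that of day 1, round 2 for H2-K1, 1481 CPM (next 1113). Tap2 reached 48.0 CPM in natural killer or innate lymphoid cells of the day 4 control library (next 30.2) and was lowest in lymphatic endothelial cells of the day 1, round 1 control library, 53.1 CPM (next 94.3). Tapbp reached 50.9 CPM in dermal papilla cells of the day 1, round 2 control library (next 33.1).

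The median fitted difference had opposite signs in 2 classes, 0.39 in dermal papilla cells (9 genes tested) and -0.66 in endothelial cells (10 genes). In both classes every pair of libraries lay on 1 side. The median log2 ratio of unscaled CPM over the 10 genes ran from 0.23 to 1.09 in 4 dermal papilla pairs. In 5 endothelial pairs it ran from -0.73 to -0.21. The fits use scaled counts, so the 2 kinds of median are not directly comparable in size. The difference between these classes was not tested.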

How the results depend on the processing

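Median depth was higher in expanded cells of all 13 compared classes. Thinning to 2000 UMIs moved 18 of 106 member values beyond their spread, mice as units 24 of 59, leaving out a library 63 of 1234, clustering without the listed genes 5 of 118 and DESeq2 1 of 128. The median of the class I genes moved beyond its spread in dermal papilla cells (0.81 thinned), pericytes (-0.56 thinned) and endothelial cells (-0.91 with mice as units). Thinned fits gave 106 member values, against 128 under DESeq2, so a thinned median may rest on fewer genes. Whether lost genes moved these medians was not tested. The H2-Q4 difference in dendritic cells turned to 0.11 when thinned. It was the 1 reversal under thinning, and none was seen under DESeq2, without a filter, with the block or without a library. The other class medians, including all those without 1 library, moved by less than their spread. A 5% mitochondrial limit moved 0 of 260 member levels and thinning 13. Clustering without the listed genes left no named dendritic class and so gave no value there.

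Numbers of genes called moved over 1.5 times as follows. Thinning gave 78 in Langerhans cells, 18 in natural killer or innate lymphoid cells, 259 in basal keratinocytes, 365 in dendritic cells, 323 in endothelial cells, 1519 in fibroblasts, 235 in lymphatic endothelial cells, 1278 in macrophages, 23 in melanocytes and 491 in pericytes. No filter gave 1092 in Langerhans, 209 in natural killer, 236 in Schwann, 286 in T, 2184 in basal, 579 in dermal papilla, 1730 in endothelial and 184 in melanocyte classes. DESeq2 gave 563, 52, 33 and 73 in Langerhans, natural killer, Schwann and T cells. Under the replicate block, which replaced day by each pair of libraries, the number was 57 in natural killer cells (29 without it), 72 in Schwann cells (11) and 53 in T cells (18), and the block moved no other class count by over 1.5 times. It left 1 library without a pair out of the Schwann fit. Among 115 values of named pathway genes the block added 3 calls and ended 2, Klrd1 in dendritic cells and H2-Q6 in macrophages. Leaving out 1 library gave 15 to 878 in Langerhans, 9 to 38 in natural killer, 2 to 30 in Schwann, 8 to 32 in T, 510 to 1609 in basal, 726 to 1986 in dendritic, 83 to 278 in dermal papilla, 591 to 1090 in endothelial, 215 to 780 in lymphatic, 955 to 2538 in macrophage, 32 to 74 in melanocyte and 611 to 1283 in pericyte classes.

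Constitutive proteasome genes called higher numbered 2 in basal keratinocytes, 5 in dendritic, 3 in endothelial and 7 in lymphatic endothelial cells when thinned, and 5 in dendritic cells without a filter. Without 1 library they ranged from 2 to 5 in basal, 4 to 10 in dendritic, 4 to 8 in endothelial, 3 to 12 in lymphatic, 2 to 12 in macrophage and 6 to 10 in pericyte classes. The cause of these changes was not tested.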
